A study of Mus musculus with 26 samples.

Results

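Calorie restriction (CR) was compared with a control diet in mice labelled MKO, which carry a knockout of PGC-1a confined to skeletal muscle. The members were taken by array title, with 7 mice titled CR diet MKO and 7 titled Control diet MKO, which are 14 of the 26 mice of the series, and all probe sets that name a single gene were read. The other 12 mice were FLOX littermates with floxed alleles, 6 on each diet. Each mouse gave 1 array, hybridised with total RNA of the TA/EDL sample (tibialis anterior with extensor digitorum longus), 2 muscles of the shin made almost wholly of fast fibres. All 26 were housed singly, had a mixed C57/BL6 and 129 background, and ate the purified AIN-93M diet freely for at least 10 days while their intake was recorded. Controls were then held at 90% of that intake for 12 weeks. CR mice were held at 80% in the first week and then at 60% on a formula made for 40% restriction for about 11 weeks. Age, the promoter behind the deletion and the hour of collection were not given in the sources used here. Cells other than fibres keep the gene under a deletion of this kind.

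PGC-1a, encoded by Ppargc1a, is a coactivator that binds nuclear receptors and other transcription factors and raises the transcription of genes for respiration, mitochondrial protein synthesis and fatty acid oxidation. Muscle on restricted food draws more on fat between meals, and fasting normally brings up enzymes that spare glucose, such as pyruvate dehydrogenase kinase 4. The title of the series asks whether muscle PGC-1a is needed for the mitochondrial and metabolic responses to CR, and the response in mice labelled MKO is the part of that question read here.

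As a check of the labels, the targeted gene came first. For the Ppargc1a probe set used as the gene's, intensity was 1244, 1425 and 2360 as the lowest, median and highest control-diet mouse, and 1473, 1641 and 1966 on CR. The groups overlapped, and control-diet mouse 3 was the brightest of all 14. Across its 5 probe sets the log2 change under CR lay between 0.11 and 0.21, and none passed in limma or in exact two-sided permutation tests of mice, whose p lay between 0.0932 and 0.298 (0.284 to 0.298 after Benjamini-Hochberg adjustment over the 5). With each of the 14 mice left out in turn, the adjusted p of the tested probe set over all genes lay between 0.0366, without control-diet mouse 3, and 0.621. That mouse was singled out after its values were seen, and leaving out the brightest control must widen the difference, so nothing is read from it. In all 5 probe sets every control-diet mouse labelled MKO was brighter than every control-diet FLOX mouse. The sources used here do not place these probes relative to the deleted part, and since probes outside it cannot check the label, the mice are called labelled MKO.

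The tissue matched its label. Muscle creatine kinase (Ckm) averaged 32646 in control-diet mice, and Myh4, the myosin heavy chain of the fastest fibres, lay between 27494 and 31219 in all 14. Arrays within a diet group correlated at 0.984 to 0.996 across genes. A pair of mice stood apart. CR mouse 6 had a Myh7 (slow myosin) intensity of 2929 against 308 to 751 in the other CR mice and 283 to 1242 in controls, and control-diet mouse 4 had the highest interferon and MHC levels. Without both, 1586 genes passed in place of 2246. In whole muscle, fewer cells of a type and less RNA per cell cannot be told apart.

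The restricted mice differed from their controls by modest shifts of many transcripts. Of 14854 genes tested with limma, 2246 passed at an adjusted p under 0.05 (15.1%). They comprised 986 higher under CR (6.64%) and 1260 lower (8.48%), and the median size of a called change was 0.20 on the log2 scale. Only 128 called genes moved by at least 0.5, of which 47 rose and 81 fell, and 15 moved by at least 1. All 7 CR mice lay above all 7 controls for 215 genes (1.45%) and below them for 302 (2.03%), so that the diets did not overlap for 517 (3.48%). The median change of all genes tested was 0.00.

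Among the largest rises was Casq2, a calsequestrin of slow and heart muscle that stores calcium in the sarcoplasmic reticulum. Its lowest, median and highest intensities were 469, 516 and 940 on the control diet and 1413, 1903 and 2266 on CR, with no overlap. That is a 2.96-fold rise (log2 change 1.57 ± 0.15 SE, adjusted p = 2.04e-07). Egln3, a prolyl hydroxylase that marks hypoxia-inducible factor for removal, was at 562, 839 and 1375 in controls and 1560, 1811 and 3783 under CR. It rose 2.50-fold without overlap (log2 1.32 ± 0.22 SE, adjusted p = 0.000126). Mid1ip1, which promotes the polymerisation of acetyl-CoA carboxylase, was at 709, 917 and 1462 in controls and 2005, 2185 and 2686 under CR, a 2.27-fold rise with the groups apart (adjusted p = 3.38e-05).

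The other large rises had varied roles. Fbp2, the muscle fructose-bisphosphatase, went from 1312 ± 243 (SD, n = 7) to 2415 ± 322 (SD, n = 7), and all CR mice were above all controls. Car14, a membrane carbonic anhydrase, rose 1.80-fold, the phosphatase inhibitor Ppp1r1a 1.76-fold, and Abca1, the cholesterol exporter, 1.74-fold, each without overlap. Ctxn3 (1.84-fold), Tmem52 (1.78-fold) and Hectd2os (1.69-fold), a transcript named for the strand opposite Hectd2, likewise had no overlap. Sh3rf2 (1.83-fold) and Inmt (1.66-fold), a methyltransferase of indole amines, had 6 of 7 CR mice above every control. G0s2, a protein inhibitor of the lipase Pnpla2, was the least steady. Its intensity was 578, 928 and 2124 in controls and 1283, 2004 and 3549 under CR, only 2 CR mice exceeded every control, and the adjusted p of 0.0388 was lost when any of 9 mice was left out (highest 0.0927).

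No transcript fell further than Mss51, which is enriched in muscle and tied to myostatin signalling and respiration. Its intensity was 4476, 6907 and 8108 in controls and 758, 1352 and 2055 under CR, which is 4.71-fold lower (log2 -2.24 ± 0.23 SE, adjusted p = 4.54e-07). The lowest control was above the highest CR mouse. Smtnl2, a smoothelin-like muscle protein, had the tightest large difference, at 5917, 6119 and 6605 against 2830, 3254 and 4018 (log2 -0.90 ± 0.06 SE, adjusted p = 1.13e-09). Aplnr, the apelin receptor, fell 1.94-fold, Cpeb1, a regulator of poly(A) tails, 1.89-fold, Tmem140 1.89-fold, Dkk3, a secreted protein of the dickkopf family, 2.20-fold, and Retnla, a product of alternatively activated macrophages, 2.00-fold. In these 5 every CR mouse was below every control. Pla2g7, which inactivates platelet-activating factor, fell 1.92-fold with 6 of 7 CR mice below the controls.

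**Figure D1:**
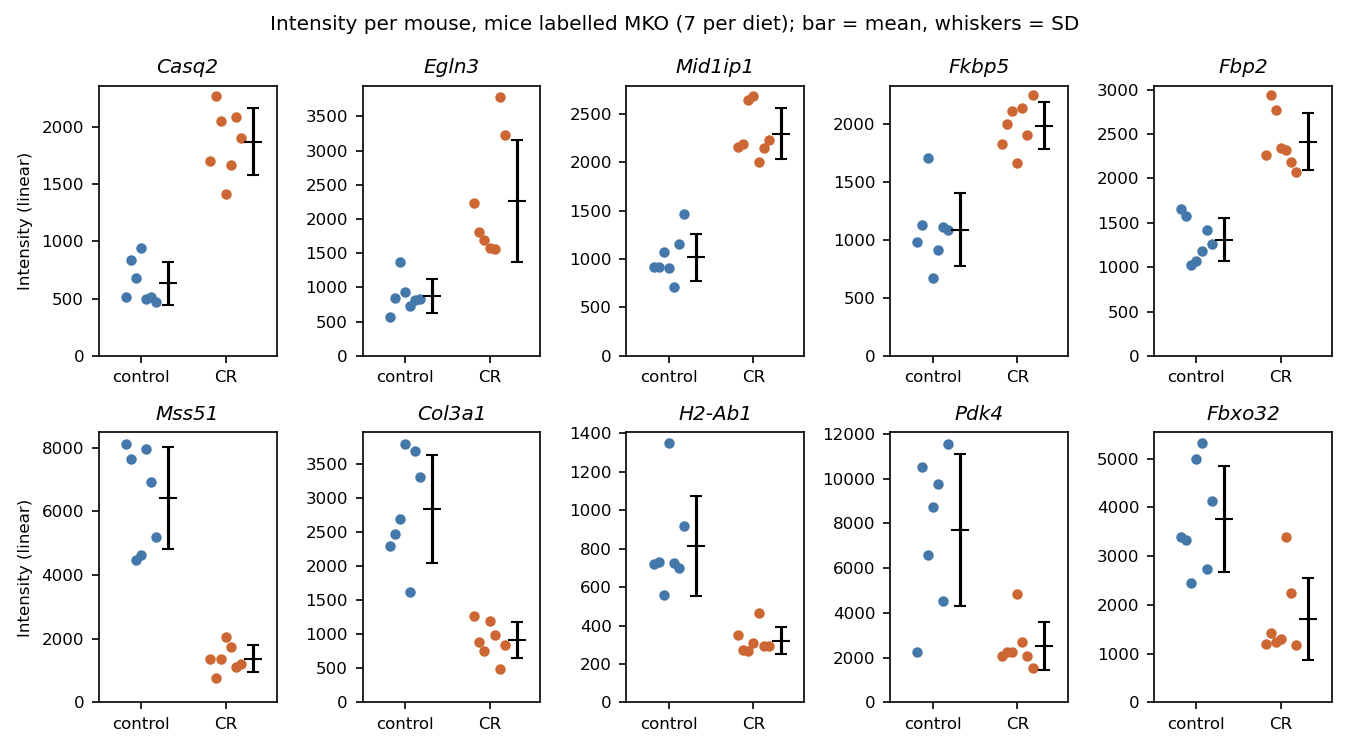
Intensity on the linear deposited scale (y axis, starting at 0) of 10 genes in each mouse labelled MKO, with 7 control-diet and 7 CR mice per panel, the mean as a bar and the SD as whiskers. The groups are fully apart for Casq2, Egln3, Mid1ip1, Fbp2, Mss51, Col3a1 and H2-Ab1, while Fkbp5, Pdk4 and Fbxo32 overlap in at least 1 mouse.

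Many genes of the extracellular matrix were lower and none rose. Of 89 matrix genes tested in 6 lists, 43 fell and 0 rose, with a median change of -0.20 against 0.00 over all genes. The falls made up 48.3% of them, against 8.48% of all genes. The fibrillar collagens, the rope-like load-bearing fibres of the endomysium and tendon, contributed 6 falls among 9 members (66.7%, median -0.41). Col3a1 was at 1625, 2694 and 3796 in controls and 496, 881 and 1262 under CR, without overlap, and fell 3.06-fold (log2 -1.61 ± 0.22 SE, adjusted p = 1.92e-05). Col1a2 fell 2.42-fold, Col1a1 1.84-fold and Col5a2 1.61-fold, all with the groups apart. Col5a3 and Col14a1 fell by 0.41 and 0.22 on the log2 scale, with overlap. The other Col5a3 probe set had a log2 difference of 0.12 and did not pass.

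The sheet-like collagens around each fibre and vessel moved the same way. Among 17 basement membrane and microfibrillar genes, 9 fell (52.9%, against 8.48% of all genes) and 0 rose (median -0.24). Col4a1 went from 1474 ± 181 (SD, n = 7) to 844 ± 172 (SD, n = 7) and Col6a3 from 1112 ± 122 (SD) to 671 ± 116 (SD), each with every CR mouse lower. Col4a2 fell 1.51-fold with 6 of 7 CR mice below the controls. The laminin chain Lama2, the link between fibre and sheet that is lost in a congenital dystrophy, fell by 0.32 and Nid1, a nidogen that bridges laminin and collagen, fell by 0.51 on the log2 scale.

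Several enzymes and chaperones that make collagen fell too. Serpinh1, the collagen-specific chaperone of the endoplasmic reticulum, was at 792, 957 and 1016 in controls and 478, 561 and 646 under CR, 1.63-fold lower (log2 -0.71 ± 0.07 SE, adjusted p = 4.54e-07). In this list 10 of 17 genes fell (58.8%, against 8.48% of all genes) and 0 rose (median -0.23). They include the prolyl hydroxylase P4ha2 (1.23-fold), the crosslinking oxidase Loxl1 (1.42-fold) and Bmp1, the protease that trims procollagen (1.25-fold), each without overlap. Proteoglycans and glycoproteins of the matrix showed 11 falls among 22 (median -0.21). Fibronectin (Fn1) fell 1.77-fold and Sparc, a collagen-binding glycoprotein, 1.74-fold, each with all CR mice lower. Prelp fell 1.51-fold (its 2 probe sets moved in opposite directions, and only the brighter was called), Fmod 1.81-fold and Dcn 1.28-fold.

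Genes for the removal of matrix showed no rise either. Of 10 proteases and inhibitors, 4 fell (40.0%, against 8.48% of all genes) and 0 rose. Among the falls were the inhibitor Timp2 (1.29-fold, no overlap), the aggrecanase Adamts5 (1.25-fold) and the collagen-degrading cathepsin Ctsk (1.17-fold). Among 14 TGF-beta and other matrix-inducing signals, 3 fell (21.4%). Tgfb3 was lower in every CR mouse (1.22-fold, adjusted p = 0.000101), whereas Smad3 (adjusted p = 0.0361) and Ltbp3 (0.0468) lost the call when any 1 of 8 and of 10 mice was left out, so that the count was 1 without control-diet mouse 1 or 4 or CR mouse 2, 6 or 7.

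Markers of the cells that make matrix were lower as well. Of 16 fibroblast and tendon markers 10 fell (62.5%, against 8.48% of all genes, median -0.31). Thy1, a surface marker of fibroblasts, was at 212, 232 and 253 in controls and 151, 178 and 203 under CR, without overlap. The tendon proteins Tnmd and Chad fell 1.63- and 1.59-fold with 6 and 5 of 7 CR mice below the controls. The mean log2 level of these markers ranged from 9.09 to 9.28 in control mice and from 8.68 to 9.17 on CR, with 6 of 7 CR mice lower, and CR mouse 5 at 9.17. The part of fibroblast or tendon content in the fall of the matrix genes was not tested.

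Several endothelial markers were lower. Of 25 endothelial markers 10 fell (40.0%, against 8.48% of all genes) and 0 rose (median -0.15). Aplnr, above, fell most. Kdr, the main VEGF receptor, was at 1172, 1381 and 1790 in controls and 794, 964 and 1191 under CR, with 6 of 7 CR mice lower (log2 -0.50 ± 0.10 SE, adjusted p = 0.000775). Angpt1, a ligand that steadies vessels, fell 1.38-fold. Pecam1, carried by nearly all endothelial cells, was 750 ± 74.1 (SD) and 743 ± 82.5 (SD). Of 11 smooth muscle and pericyte markers 0 passed (median 0.01), against 15.1% of all genes. The member of smallest p, Mcam, had a log2 difference of 0.17 (adjusted p = 0.135). The smooth muscle list includes Des, at 13595 to 15182 in controls, and the endothelial list includes the ligand Angpt1. How specific each list is to its cell type was not tested, nor was the difference between the lists.

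Resident immune and fat cell markers mostly did not pass. Among 17 macrophage markers 1 fell (5.9%, against 8.48% of all genes). It was Fcgr3 (1.15-fold, adjusted p = 0.0414, lost when any 1 of 7 mice was left out). The mean log2 level of the macrophage list ranged from 8.39 to 8.71 in controls and 8.21 to 8.58 on CR, with 4 of 7 CR mice below every control. Of 7 lymphocyte, 7 adipocyte, 7 Schwann cell and 2 red cell markers, 0 passed in each, against 15.1% of all genes. Lists this short can hold 0 at that share, so nothing is read from these counts. The members of smallest p were Ighm (log2 -0.17, adjusted p = 0.135 in its brightest probe set), Retn (0.18, 0.362), Pmp22 (-0.38, 0.0644) and Alas2 (0.59, 0.228). Of the 9 Ighm probe sets, for the heavy chain of immunoglobulin M, 1 passed as lower, the log2 differences ran from -1.17 to 0.01, and their mean passed (-0.23, adjusted p = 0.0382). The pan-leukocyte gene Ptprc was at 218 ± 40.4 (SD) and 207 ± 37.6 (SD), where the median over all probe sets of an array was 212 to 232. In the satellite cell list of 10 genes only the integrin Itga7 rose (1.19-fold). That is 10.0% of the list, against 6.64% of all genes.

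Genes of antigen presentation fell, among them those of the class II arm, which dendritic cells, macrophages and B cells use to show peptides to helper T cells. Of 8 class II genes 5 fell (62.5%, against 8.48% of all genes) and 0 rose (median -0.27). Cd74, the invariant chain, was at 720, 898 and 2007 in controls and 246, 311 and 612 under CR. It fell 3.07-fold with the groups apart (log2 -1.62 ± 0.23 SE, adjusted p = 2.69e-05). H2-Ab1 was at 559, 724 and 1350 against 267, 295 and 468, a 2.41-fold fall, and H2-Eb1 at 405, 445 and 722 against 276, 297 and 363, a 1.55-fold fall. H2-Aa fell in all 3 of its probe sets, by log2 -0.26 in the brightest, which is the one used (lost when any 1 of 6 mice was left out), to -1.07. The loading factor H2-DMa fell in the probe set used (log2 -0.27) but had 0.02 in its other one, and its call was lost when they were averaged (adjusted p = 0.0748). Control-diet mouse 4 was the highest in all of the first 3, and their calls held when it was left out.

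Class II genes share promoter elements that the regulators RFX, CREB and NF-Y bind together, and the pair below is printed because both members fell. RefSeq's GRCm38.p6 table held 250 bases upstream of 3 of the 5 called class II genes, H2-Aa, H2-Eb1 and H2-DMa. The Y box core CTGATTGG, the NF-Y element, searched on both strands, was in the first 2 and in 3.83% of all 32851 promoters. The windows are chr17:34305767-34305866 on the plus strand for H2-Eb1 and chr17:34287824-34287923 on the minus strand for H2-Aa, read towards the start of transcription, with the core in capitals. It begins 62 and 51 bases before the start.
H2-Eb1: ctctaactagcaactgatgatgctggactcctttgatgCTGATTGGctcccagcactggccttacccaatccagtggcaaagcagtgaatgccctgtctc
H2-Aa: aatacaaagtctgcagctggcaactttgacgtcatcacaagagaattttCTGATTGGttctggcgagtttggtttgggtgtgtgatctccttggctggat

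Class I presentation and interferon genes were lower in part. Of 13 class I genes, which nearly all cells use, 7 fell (53.8%, against 8.48% of all genes, median -0.20). B2m, the shared light chain, was at 4132, 4948 and 7181 in controls and 3276, 3402 and 4221 under CR, with 5 of 7 CR mice lower (1.40-fold, adjusted p = 0.00237). H2-K1 and H2-D1 fell 1.42- and 1.39-fold, though probes of these near-identical genes can share targets and some of their probe sets moved the other way. Among 23 interferon response genes 5 fell (21.7%) and 0 rose (median -0.08). Iigp1, an interferon-induced GTPase, was at 341, 528 and 1510 in controls, the highest being mouse 4, and 203, 233 and 357 under CR (2.18-fold, adjusted p = 0.0106). Irf1 fell 1.15-fold and Ifit2 1.11-fold. Of 15 complement and inflammation genes 4 fell (26.7%), including the complement proteases C1s1 (1.25-fold) and C1ra (1.22-fold) and factor B, Cfb (1.13-fold). Beside all these falls, the macrophage list moved by a median of -0.07, with 15 of 17 members lower at any size. The lymphocyte list moved by -0.03, with all 7 members lower at any size and Ighm lower on averaging its probe sets as above. Some of these markers were dim, such as Cd79a at 152 to 175 in controls, where fold changes are understated. The part of these cells in the result was not tested.

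**Figure D2:**
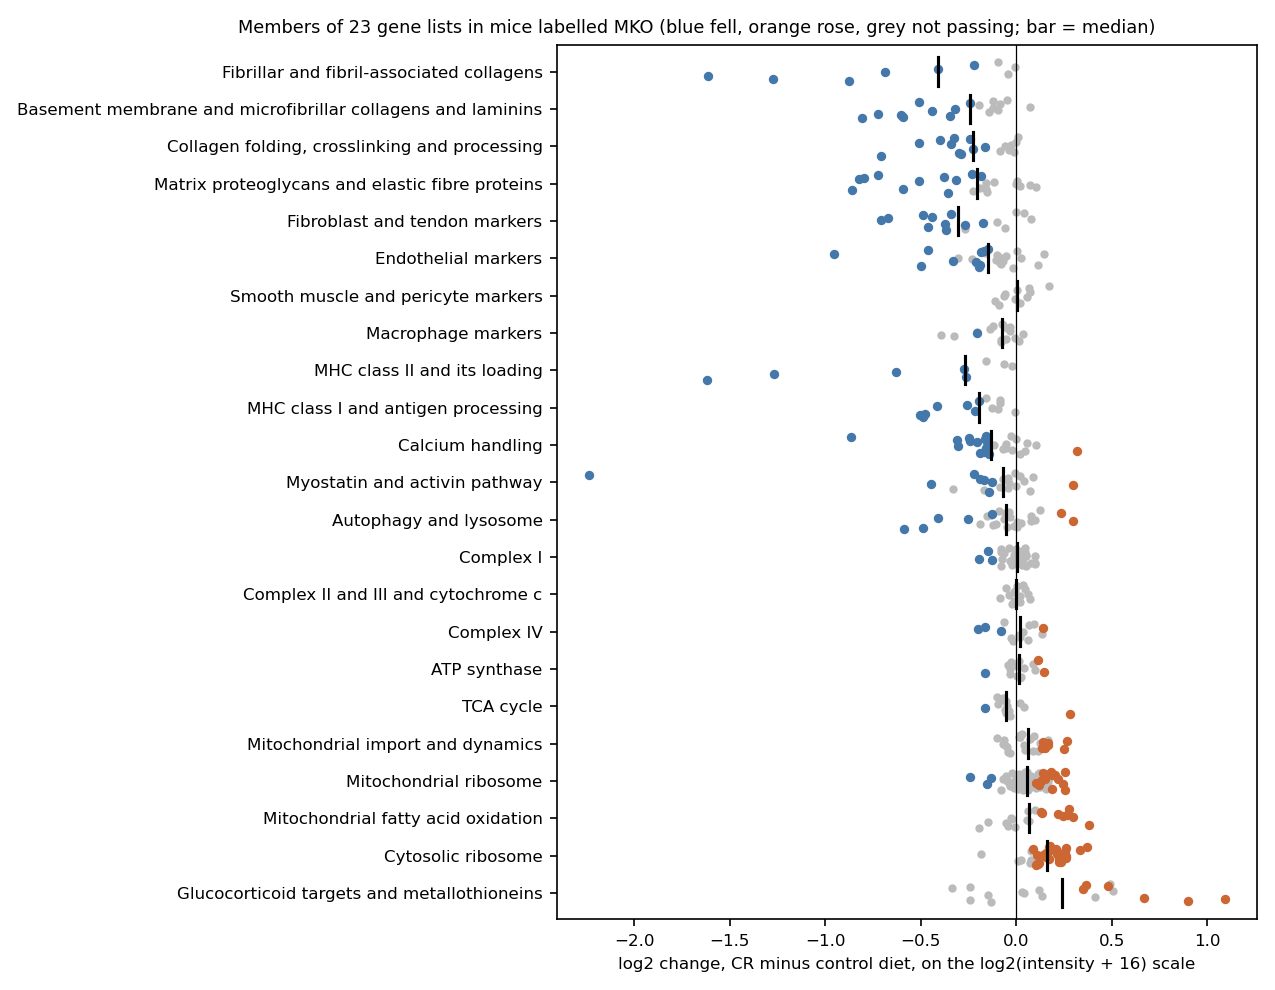
Log2 change under CR (x axis, CR minus control diet on the log2(intensity + 16) scale) of each tested member of 23 gene lists in mice labelled MKO, with members that fell in blue, members that rose in orange, members that did not pass in grey and the list's median as a bar. Collagens and class II genes lie to the left, with medians of -0.41 and -0.27, the cytosolic ribosome lies to the right with a median of 0.16, and the respiratory chain complexes lie around 0.

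Control of pyruvate and fat use changed in several single genes. Pdk4, the kinase that shuts pyruvate dehydrogenase and is raised by fasting, was lower on CR. Its intensity was 2243, 8726 and 11550 in controls and 1537, 2232 and 4845 under CR. It fell 2.85-fold (log2 -1.51 ± 0.36 SE, adjusted p = 0.00485), but control-diet mouse 1, at 2243, lay among the CR mice and 4 of 7 CR mice were below every control. The opposing phosphatase subunit Pdp1 rose 1.38-fold without overlap (adjusted p = 0.000131), and Pdk2 rose 1.14-fold. Ucp3, a mitochondrial carrier raised by fatty acids, was at 1246, 2229 and 3479 against 927, 1083 and 2248 and fell 1.74-fold (adjusted p = 0.0356, lost when any 1 of 8 mice was left out). Over the 16 PPAR targets and pyruvate dehydrogenase regulators tested, 2 rose and 2 fell (median -0.02). Each is 12.5% of the list, against 6.64% and 8.48% of all genes.

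Several enzymes that burn fat were slightly higher. Of 19 genes of mitochondrial fatty acid oxidation, 8 rose (42.1%, against 6.64% of all genes) and 0 fell (median 0.07). Acadl, the long-chain acyl-CoA dehydrogenase, was at 4669, 5442 and 6426 in controls and 6886, 7222 and 7459 under CR, without overlap (1.30-fold, adjusted p = 7.92e-05). Echs1, the enoyl-CoA hydratase, rose 1.23-fold and Ech1, an isomerase for unsaturated chains, 1.21-fold. Hadha, the alpha subunit of the trifunctional protein, was at 3679 ± 524 (SD) and 3599 ± 194 (SD). Without the 2 mice that stood apart the count of rises was 5. Among uptake and activation genes, Vldlr, a receptor for triglyceride-rich particles, fell 1.30-fold and the synthetase Acsl5 1.18-fold, both without overlap, while Acsl6 rose 1.20-fold, a call lost without control-diet mouse 2 or CR mouse 3.

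In the fatty acid and sterol synthesis list of 24, 2 rose (8.3%) and 3 fell (12.5%), near the 6.64% and 8.48% of all genes. Besides Mid1ip1, Dgat2, which adds the last acyl chain of triglyceride, was at 638, 808 and 907 in controls and 1038, 1131 and 1514 under CR (1.54-fold, adjusted p = 0.000434). Gpam, which adds the first, fell 1.24-fold, and Me1, a source of NADPH, 1.30-fold. Fasn was 560 ± 215 (SD) and 913 ± 402 (SD) and did not pass (adjusted p = 0.26). Of 13 storage and lipolysis genes 3 rose (23.1%) and 2 fell (15.4%). The triglyceride lipase Pnpla2 was at 1752, 1977 and 2618 against 2831, 3085 and 3406, a 1.51-fold rise with no overlap (adjusted p = 2.9e-05). Its inhibitor G0s2, above, was also higher. Its activator Abhd5 fell 1.23-fold, a call that was lost when its 3 probe sets were averaged. The droplet coat protein Plin3 rose 1.36-fold.

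Glucose and glycogen genes included both rises and falls. Of 21 uptake and glycolysis genes 4 rose and 4 fell (2 without control-diet mouse 4, 6 or 7). Fbp2, above, rose most. Tbc1d4, an Akt target that holds glucose transporters inside the cell, was at 446, 625 and 903 in controls and 687, 952 and 1382 under CR (1.56-fold, adjusted p = 0.00712), and its relative Tbc1d1 fell 1.29-fold. Slc2a4, the insulin-responsive transporter, rose 1.11-fold, although no CR mouse exceeded every control. Of 16 glycogen genes 2 rose and 4 fell. Stbd1, a glycogen-binding protein, rose 1.54-fold and the branching enzyme Gbe1 1.32-fold. Phosphorylase kinase, which starts glycogen breakdown, was lower in 3 subunits. Phka1 was at 8798, 9085 and 10182 against 6518, 7412 and 7750 (1.29-fold, adjusted p = 5.89e-06), Phkg1 fell 1.25-fold and Phkb 1.17-fold. Among 24 amino acid genes 6 rose and 4 fell, and the falls numbered 1 or 2 when any mouse other than control-diet mouse 3 or 5 was left out. The alanine aminotransferase Gpt rose 1.33-fold and Ppm1k, which activates branched-chain breakdown, 1.26-fold, while the propionyl-CoA carboxylase subunit Pcca fell 1.31-fold, all without overlap.

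Respiratory chain transcripts differed little between the diets, by -0.20 to 0.14 on the log2 scale. Of 76 subunits in 4 lists 3 rose and 7 fell, which is 13.2% called, near the 15.1% of all genes, with a median of 0.01. Cox4i1 of complex IV was at 15363 ± 465 (SD) and 15194 ± 188 (SD), Atp5b of ATP synthase at 16190 ± 347 (SD) and 16484 ± 269 (SD), and Sdha of complex II at 8875 ± 332 (SD) and 8728 ± 238 (SD). The changes that passed were small. Cox7a1, the heart and muscle form of a complex IV subunit, fell 1.15-fold and Cox7a2, its liver form, rose 1.10-fold. Cox7a2l, an assembly factor of respiratory supercomplexes, fell 1.12-fold. In complex I only Ndufa13, Ndufb2 and Ndufs5 of 33 passed, with falls of 1.09- to 1.15-fold, and Ndufs5 lost its call when any 1 of 9 mice was left out. In ATP synthase Atp5g1 and Atp5l rose (1.11- and 1.08-fold) and Atp5e fell (1.12-fold). In complexes II and III with cytochrome c, 0 of 14 passed, and Uqcrc1 had the smallest p (log2 -0.08, adjusted p = 0.171). Of 14 TCA cycle genes (14.3% called) Idh2 rose (adjusted p = 0.0461, lost when any 1 of 10 mice was left out) and Ogdh fell (0.0119). Citrate synthase, Cs, was at 8070 ± 448 (SD) and 7885 ± 323 (SD).

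Few genes that regulate mitochondrial content passed. Among 21 coactivators, nuclear receptors and related factors, 1 passed (4.8% of the list, against 15.1% of all genes). Ppard rose 1.11-fold with an adjusted p of 0.0498, which was lost when any 1 of 11 mice was left out, and no CR mouse was above all controls. Esrra, a main partner of PGC-1a, was at 1296 ± 70.8 (SD) and 1331 ± 88.5 (SD), Ppargc1b, its closest relative, at 1174 ± 85.9 (SD) and 1194 ± 126 (SD), and Tfam, the mitochondrial DNA packaging factor, at 986 ± 47.4 (SD) and 992 ± 51.8 (SD).

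Some genes that build mitochondria rose. Of 74 mitochondrial ribosome genes 17 rose and 3 fell (median 0.06), and 1 fell without control-diet mouse 2, 3 or 6 or CR mouse 1, 3 or 4. Mrpl2 was at 2472, 2733 and 2855 in controls and 3054, 3292 and 3369 under CR, with no overlap (1.19-fold, adjusted p = 1.58e-05). Mrpl35 rose 1.18-fold, and Mrps12 fell 1.18-fold. Without control-diet mouse 4, which had the lowest mean level of the list, 11 rose. Of 26 import and dynamics genes 7 rose (26.9%) and 0 fell (median 0.06). They include the inner membrane translocase subunits Timm17a and Timm44 (both 1.12-fold) and the scaffold prohibitin 2, Phb2 (1.20-fold). Without the 2 mice that stood apart the counts of rises were 9 and 4.

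Cytosolic ribosomal proteins rose as a group. Of 34 tested 28 rose and 0 fell, against 6.64% of all genes, and the median was 0.16. Rps28 was at 7613, 7929 and 8733 in controls and 9408, 10400 and 11245 under CR (1.29-fold, adjusted p = 3.08e-06). Rps19 was at 3728, 4123 and 4236 against 4803, 4987 and 5592 (1.26-fold, adjusted p = 1.18e-06). Rpl35 rose 1.20-fold. In these 3 every CR mouse was above every control, as in 11 of the 34, against 1.45% of all genes. Called folds ranged from 1.06 to 1.29. Ribosomal protein genes have many processed copies. Of the 12 measured by probe sets able to bind several transcripts 11 rose, and of the other 22, 17 rose. The mean log2 level of the list was 12.14 to 12.23 in control mice and 12.31 to 12.41 on CR.

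**Figure D3:**
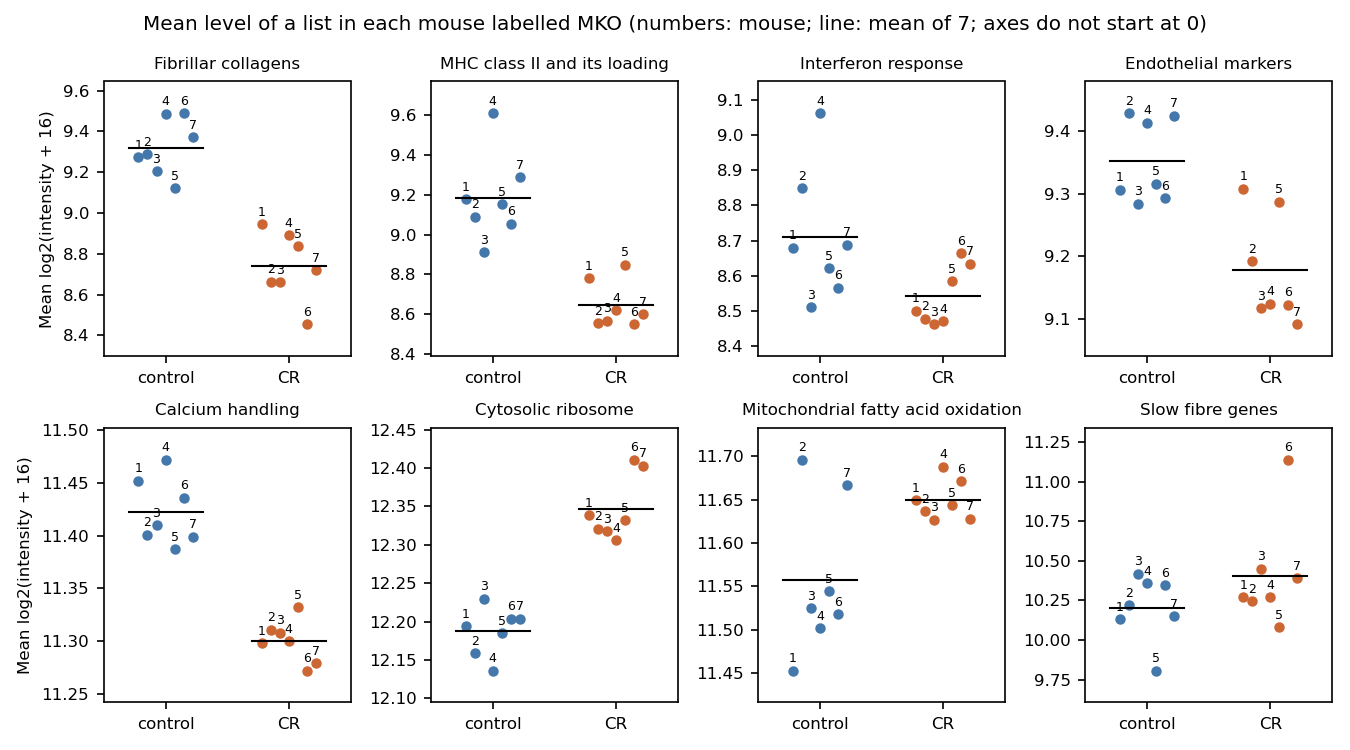
Mean log2(intensity + 16) of the tested members of 8 gene lists (y axes, which do not start at 0) in each of the 14 mice labelled MKO, numbered by mouse, with the mean of 7 mice as a line. The diets are apart for collagens, class II, calcium handling and the cytosolic ribosome, control-diet mouse 4 is highest for class II and interferon genes, and CR mouse 6 is highest for slow fibre genes.

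Many calcium handling genes were lower. Of 26 tested 13 fell and 1 rose (median -0.13). Mrln, a micropeptide that restrains the calcium pump, was at 2791, 3654 and 4346 in controls and 1603, 2052 and 2265 under CR (1.82-fold lower, adjusted p = 9.31e-05), without overlap. Ryr1, the release channel, was at 13542 ± 835 (SD) and 12229 ± 369 (SD) and fell 1.11-fold, a call lost without the 2 mice that stood apart (adjusted p = 0.0651). Cacnb1, the beta subunit of the voltage sensor, rose 1.25-fold (1385, 1712 and 1827 against 1215, 1323 and 1480 in controls). Rcan1, a calcineurin target and inhibitor, fell 1.18-fold, Camk2a 1.24-fold and the transcription factor Nfatc3 1.19-fold. The fast pump Atp2a1 was at 31736 ± 415 (SD) and 31396 ± 514 (SD), close to the top of the array's range, where differences are compressed.

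Fibre type genes passed at shares on either side of the 15.1% of all genes, with 11.8% of the slow, 23.5% of the fast and 25% of the developmental list and 10.0% of the junction list. Of 17 slow fibre genes 2 rose, Casq2 and the Z-disc protein Myoz2, which was at 3757, 4854 and 7137 in controls and 7206, 8067 and 9560 under CR (1.57-fold, no overlap, adjusted p = 0.00437). The defining slow genes did not follow them. Myh7 was at 283, 704 and 1242 in controls and 308, 394 and 2929 under CR (log2 -0.13 ± 0.39 SE), and the differences were -0.05 for Tnnt1 and -0.04 for Tnni1. These values depended on the mice included. With any 1 mouse left out they ran from -0.52 to 0.02 for Myh7, -0.38 to 0.09 for Tnnt1 and -0.32 to 0.07 for Tnni1, and none passed. Casq2 stayed apart in every CR mouse, mouse 6 among them, and its adjusted p was at most 1.32e-06 with any mouse left out. Of 17 fast fibre genes 2 rose and 2 fell. Myh2, the myosin of fast oxidative fibres, was at 13309, 15816 and 20703 against 20201, 21722 and 22914 (1.33-fold, adjusted p = 0.0131), a call lost without the 2 mice that stood apart. Mylk2, the kinase of the fast regulatory light chain, fell 1.41-fold and Mybpc2, the fast myosin-binding protein C, 1.15-fold, both without overlap. Of 12 developmental and cardiac sarcomere genes Mybpc1 (1.10-fold, adjusted p = 0.056 on averaging its probe sets) and Nppb (1.11-fold, lost when any 1 of 6 mice was left out) rose and Myl4 fell (1.20-fold). 1 of the 2 Myl4 probe sets had a log2 difference of 0.05, and their mean did not pass (adjusted p = 0.29). At the neuromuscular junction 2 of 20 rose, the acetylcholine receptor subunit Chrna1 (1.26-fold) and the transcription factor Etv5 (1.17-fold, adjusted p = 0.104 on averaging its probe sets), with 4 rises without control-diet mouse 6.

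The main ubiquitin ligases of muscle wasting were lower in restricted mice. Fbxo32 (atrogin-1), which marks growth and translation factors, was at 2449, 3403 and 5317 in controls and 1188, 1305 and 3404 under CR. It fell 2.28-fold (log2 -1.19 ± 0.25 SE, adjusted p = 0.00157), and 6 CR mice lay under the lowest control. Trim63 (MuRF1), a ligase that targets myosin, was at 7115, 7309 and 9291 against 4766, 5247 and 7712 (1.42-fold, adjusted p = 0.00638). In both genes CR mouse 5 was the CR mouse within the control range. Fbxo21 rose 1.09-fold (lost when any 1 of 5 mice was left out), and the other 12 of 15 genes in the list did not pass, among them Foxo1 (log2 -0.06) and Foxo3 (0.17). Without control-diet mouse 6, 4 of the list fell in place of 2. The calls made up 20.0% of the list, against 15.1% of all genes.

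Trim63 is a known target of FOXO factors and of the glucocorticoid receptor, and its upstream window is printed because it holds letters of both. It is chr4:134314900-134314999 on the plus strand of GRCm38.p6, in RefSeq's table. The FOXO core GTAAACA, searched on both strands, is in 3.17% of promoters and here lies on the reverse strand from 194 bases before the start. The palindromic glucocorticoid response element is in 0.387% and begins 208 bases before it. Capitals mark both, which do not overlap.
Trim63: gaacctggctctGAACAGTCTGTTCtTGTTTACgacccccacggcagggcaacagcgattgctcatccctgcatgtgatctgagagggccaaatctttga

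Autophagy regulators fell in part. Of 26 genes 5 fell (19.2%) and 2 rose (7.7%), against 8.48% and 6.64% of all genes. Ulk1, the kinase that starts autophagosome formation, was at 1096, 1377 and 1407 in controls and 817, 841 and 1049 under CR (log2 -0.59 ± 0.07 SE, adjusted p = 1.23e-06). Ulk2, its relative, was at 2113, 2193 and 2500 against 1383, 1563 and 1717 (1.40-fold lower), and Sqstm1, the cargo receptor p62, fell 1.33-fold, all without overlap. Map1lc3a, a membrane anchor of autophagosomes, rose 1.23-fold and Lamp2 of the lysosome 1.18-fold. Of 31 proteasome genes 2 rose (6.5%) and 3 fell (9.7%), near the 6.64% and 8.48% of all genes. Psmd1 (1.16-fold lower) and Psma1 (1.14-fold lower) were apart in every mouse, and Psmb4 was 1.10-fold higher. Without control-diet mouse 4, 5 of the 31 fell. Psma1 lost its call when its 3 probe sets were averaged.

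Glucocorticoid targets and metallothioneins rose in part. Of 18 tested 6 rose (33.3%, against 6.64% of all genes) and 0 fell, and the median was 0.24. Fkbp5, a chaperone of the glucocorticoid receptor and one of its most sensitive targets, was at 677, 1086 and 1706 in controls and 1667, 2002 and 2253 under CR. It rose 1.87-fold (log2 0.90 ± 0.14 SE, adjusted p = 7.94e-05), with 6 of 7 CR mice above all controls. Mt1, a metal-binding protein, was at 421, 550 and 913 against 806, 1001 and 1922 (2.13-fold, adjusted p = 0.00029), and Mt2 rose 1.59-fold (adjusted p = 0.0261, lost when any 1 of 5 mice was left out). Pik3r1 rose 1.27-fold, Glul, glutamine synthetase, 1.39-fold, and Lcn2, a secreted protein that binds siderophores, 1.29-fold. Other targets of the receptor did not pass. The log2 difference was -0.24 for Tsc22d3 (adjusted p = 0.204) and 0.03 for Klf15 (0.932), and Fbxo32 and Trim63, above, fell.

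Both metallothionein promoters are printed because the genes lie side by side, moved together and carry metal response cores. Only the form TGCACNC of the core was searched, on both strands, so other forms are neither counted nor marked. It is in 10.4% of promoters, and 1.18% hold at least 2. Mt1 holds this form from 23 bases before the start and the palindromic glucocorticoid response element from 94. Mt2 holds 2 matches to this form, from 223 and from 50, the latter on the reverse strand. The windows are chr8:94178979-94179088 and chr8:94172378-94172587, both on the plus strand of GRCm38.p6, with matches in capitals and none overlapping.
Mt1: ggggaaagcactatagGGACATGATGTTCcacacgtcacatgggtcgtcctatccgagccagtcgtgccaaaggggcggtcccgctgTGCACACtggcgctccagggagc
Mt2: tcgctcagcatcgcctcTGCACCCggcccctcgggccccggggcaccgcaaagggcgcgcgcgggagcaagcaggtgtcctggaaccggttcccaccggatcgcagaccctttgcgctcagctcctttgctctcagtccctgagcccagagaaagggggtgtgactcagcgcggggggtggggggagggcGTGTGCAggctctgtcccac

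Insulin and nutrient sensing genes changed in both directions. Of 34 insulin, IGF and mTOR genes 4 rose (11.8%) and 8 fell (23.5%), against 6.64% and 8.48% of all genes. Akt1, the kinase at the centre of the pathway, was at 804, 915 and 939 in controls and 1053, 1194 and 1352 under CR (1.35-fold, adjusted p = 0.000665). Eif4ebp1, the translation repressor that mTOR inactivates, rose 1.33-fold. Akt1 and Eif4ebp1 had no overlap between diets. Upstream, Irs1, the receptor's docking protein, was at 2560, 3224 and 3675 against 2170, 2441 and 2803 (1.32-fold lower), the catalytic subunit Pik3ca fell 1.31-fold and its regulatory partner Pik3r1 rose. Igfbp5 fell 1.38-fold and Igfbp7 1.35-fold, whereas Igf2 rose 1.21-fold. For Insr and Mtor the log2 difference was -0.00. Among 24 AMPK, sirtuin and NAD genes 2 rose and 3 fell (1 without control-diet mouse 7 or CR mouse 5 or 6). That is 20.8% called, against 15.1% of all genes. Prkab2, a beta subunit of AMPK, was at 4583, 4987 and 5821 against 3075, 3757 and 4105 and fell 1.39-fold (adjusted p = 1.94e-05), and Prkag3, the gamma subunit of fast muscle, fell 1.19-fold. The mitochondrial sirtuin Sirt4 rose 1.17-fold, and Prkag3 and Sirt4 lost their calls when any 1 of 7 and of 6 mice was left out.

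Of 21 clock genes 3 rose and 1 fell (19% against 15.1% of all genes). Arntl (BMAL1), the activator, was at 385, 594 and 773 in controls and 259, 325 and 619 under CR and fell 1.59-fold (adjusted p = 0.0185), with 5 of 7 CR mice lower, while its other probe set had a log2 difference of -0.01. The repressors Cry2 (1.25-fold, no overlap) and Per2 (1.16-fold, adjusted p = 0.0604 on averaging its probe sets) rose. Ciart, a further repressor, was at 245, 349 and 509 against 394, 562 and 613 (1.46-fold, adjusted p = 0.0212, lost without control-diet mouse 1). The other 17 did not pass, among them the repressor Nr1d1 (log2 -0.22) and Dbp (0.40). The sources used here do not give the time between the last meal and collection. For Ciart, the window chr3:95882254-95882358 on the minus strand is printed for its 3 E-boxes, CACGTG, to which Arntl binds with its partner Clock. At least 1 is in 6.02% of promoters and at least 3 in 0.061%, and here they begin 116, 58 and 44 bases before the start.
Ciart: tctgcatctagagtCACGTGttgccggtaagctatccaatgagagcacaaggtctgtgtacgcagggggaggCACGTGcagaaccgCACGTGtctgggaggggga

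Growth and stress pathways added smaller sets. In the myostatin and activin list 7 of 21 fell (33.3%) and 1 rose (4.8%), against 8.48% and 6.64% of all genes. There were 4 falls without control-diet mouse 6, CR mouse 6 or CR mouse 7. Apart from Mss51, the type I receptor Acvr1 was at 882, 979 and 1021 in controls and 651, 704 and 787 under CR (1.36-fold lower, adjusted p = 3.33e-06), and the signal carrier Smad5 fell 1.12-fold. How specific Acvr1 and Smad5 are to myostatin or activin signals was not tested. Of the 3 Acvr1 probe sets 1 moved the other way, with a log2 difference of 0.09, and did not pass. Acvr1b rose 1.23-fold, a call lost when any 1 of 9 mice was left out. Of 15 imprinted growth genes Cdkn1c, a cell cycle inhibitor, fell 1.23-fold, Rian 1.27-fold and Igf2 rose, with 4 falls without control-diet mouse 3. Calls made up 20.0% of this list, against 15.1% of all genes. Of 17 cell cycle genes 3 rose and 2 fell (29.4% called). The replication helicase subunits Mcm3 (1.30-fold, no overlap) and Mcm2 (1.15-fold) were among the rises. Of the 4 Mcm3 probe sets 1 passed, and their log2 differences ran from -0.02 to 0.38. Among 10 myokines 2 fell, Sparc and Dcn (20.0% called). In the hypoxia list of 20, Egln3 and Ankrd37 (1.14-fold) rose and Vegfc fell (1.19-fold). The share of the hypoxia list called was near the 15.1% of all genes.

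Of 27 heat shock genes 3 rose (5 without control-diet mouse 3) and 4 fell, which is 25.9% called against 15.1% of all genes. The small protein Hspb3 rose 1.29-fold and the co-chaperone Dnaja1 fell 1.23-fold, each without overlap, and Hsp90aa1 fell 1.20-fold. Of 20 chaperones of the endoplasmic reticulum 3 fell, Dnajc3 (1.19-fold), Pdia3 (1.11-fold, lost when any 1 of 9 mice was left out) and the sensor Atf6 (1.15-fold). None of these chaperones rose, and the share called in either direction was near the 15.1% of all genes. Of the 3 Atf6 probe sets 2 had log2 differences above 0, up to 0.17, and their mean did not pass (adjusted p = 0.973). In the ATF4 list of 18 (22.2% called), 2 rose, among them Eif4ebp1, and Nupr1 (1.37-fold) and Vldlr fell. Of 26 antioxidant genes (19.2% called) 3 rose, Prdx4 (1.33-fold, no overlap), Gsta4 (1.18-fold) and Gpx1 (1.21-fold, lost when any 1 of 6 mice was left out), and 2 fell.

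The same diet in FLOX mice gave 1490 called genes (10%), 692 higher (4.66%) and 798 lower (5.37%). Of these 970 were also called in mice labelled MKO, all in the same direction. That is 43.2% of the MKO calls and 65.1% of the FLOX calls. The MKO arm had 1 more mouse per diet and a median SE of 0.050 against 0.054, so a call in 1 genotype and not in the other is no test of a difference. Of the MKO calls 96.0% had the same sign in FLOX, and the log2 changes of the 14854 genes correlated at a Pearson r of 0.745 across genes, which are not independent replicates. The test of the difference itself, the interaction of diet and genotype, called 0 genes (0%) with limma. At an unadjusted p under 0.05 it held 720 genes (4.85%), and the smallest adjusted p was 0.389.

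**Figure D4:**
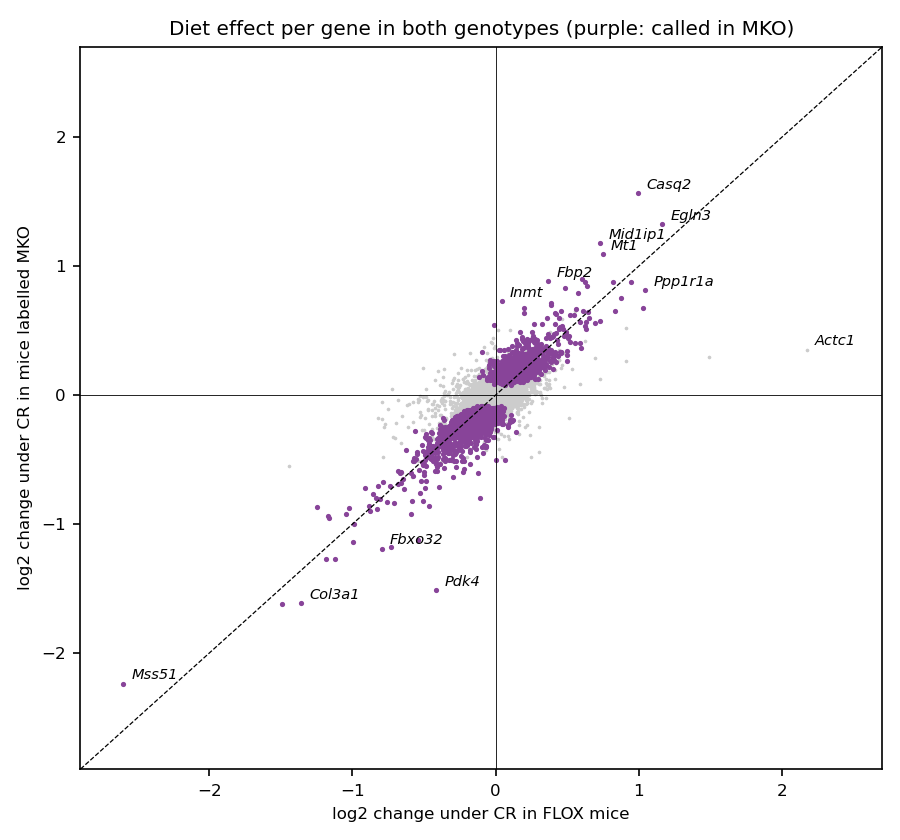
Log2 change under CR in mice labelled MKO (y axis) against that in FLOX mice (x axis) for each of the 14854 genes tested, with genes called in mice labelled MKO in purple, the others in grey and the line of equal change dashed. Most purple points lie near the line, Pdk4 lies below it (-1.51 against -0.41), and Actc1 far to the right (0.35 against 2.17).

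The 5 genes of smallest interaction p were Kcnab1, Mtfp1, Tm6sf1, Ube2k and Car2, none of which passed (adjusted p from 0.389 to 0.488). Kcnab1, a potassium channel subunit, was at 431, 469 and 495 in controls and 273, 292 and 338 under CR in mice labelled MKO. It fell by 0.64 there and by 0.30 in FLOX, a difference of -0.34 (95% interval -0.48 to -0.19). For Mtfp1, a mitochondrial fission protein, the values were -0.20 and 0.11. Tm6sf1, Ube2k and Car2 did not pass in mice labelled MKO, with 0.08, 0.06 and -0.06 there against 0.36, -0.13 and 0.22 in FLOX.

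Several members with large changes in mice labelled MKO had smaller ones in FLOX, with wide intervals of the difference. For Pdk4 the difference was -1.10 (95% interval -2.19 to -0.01, adjusted p = 0.999). For Ucp3 the log2 values were -0.80 and -0.11, a difference of -0.69 (-1.47 to 0.09). Inmt had 0.73 and 0.04, a difference of 0.69 (0.24 to 1.13), Ciart 0.55 and -0.01 (0.07 to 1.04), Fbp2 0.88 and 0.37 (0.15 to 0.88) and Kdr -0.50 and 0.01 (-0.80 to -0.21), all with adjusted p of at least 0.786. In the opposite order, the cardiac actin Actc1 had 0.35 (intensities 2708, 4240 and 10394 in controls and 3066, 4934 and 12967 under CR) against 2.17 in FLOX (difference -1.82, -2.89 to -0.75, adjusted p = 0.794), and Mybph 0.29 against 1.49 (-1.78 to -0.62, adjusted p = 0.488). Pdk4, Inmt and Fbp2 were named for their large changes in mice labelled MKO, and Kdr for its small p there. Smaller values in FLOX are to be looked for from that choice alone. The intervals are not adjusted for the number of genes, and no difference between the genotypes is read from them. Actc1, Mybph and Ucp3 were named after their values were seen.

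Group counts are set side by side here, which is no test of a difference. Among matrix genes the fibrillar collagens had 6 falls in mice labelled MKO and 5 in FLOX, with medians of -0.41 and -0.45. Cytosolic ribosomal genes had 28 rises and 8, with medians of 0.16 and 0.09, and the interaction passed for 0 of the 34. Over all genes 6.64% rose and 8.48% fell in mice labelled MKO, and 4.66% rose and 5.37% fell in FLOX. For citrate synthase, Cs, the log2 values were -0.03 and 0.16 (difference -0.19, 95% interval -0.31 to -0.08, adjusted p = 0.794).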

How the data were processed

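Total RNA of 26 mice was hybridised to 1-colour Affymetrix arrays. The authors deposited 1 intensity per probe set and array on a linear scale, for 45101 probe sets. Their background correction and normalization were not given in the sources used here. Values were taken as log2(intensity + 16), on which fold changes of dim genes are understated. Probe sets naming 1 gene (34945) were kept, those under the 30th percentile of the mean were left out, and the brightest was taken per gene, leaving 14854. The test was limma 3.58.1 (R 4.3.3) with 4 group means over all 26 arrays and Benjamini-Hochberg adjustment, called under 0.05. The script was tested on simulated data. Folds, means and SDs are computed from intensities or from the log2 fit, each mouse being 1 replicate, and the number of arrays limits the precision. Named genes are Ppargc1a, the 15 largest rises and 15 largest falls among called genes, up to 3 called members of smallest p per gene list (otherwise the member of smallest p), and the 5 genes of smallest interaction p. Further list members are given with their values. Alternatives changed the pseudocount, filter, normalization, probe set choice, arrays fitted, weights, block, threshold and mice left out. The members and gene lists were chosen with earlier results of these data known. Promoter sequences are RefSeq's.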

Additional observations from a re-analysis of the deposited data

Results flagged for a closer look

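In 20 of 442 groups of 7 mice checked, 1 mouse lay apart from the other 6 by more than the critical gap of 0.568 of the range, and chance gives about 1 in 20 groups. On the control diet these were Ppargc1a in mouse 3 (2360 against 1240 to 1520), Retnla in mouse 4 (1180 against 381 to 580), Ulk2 in mouse 4 (2500 against 2110 to 2250), Alas2 in mouse 5 (481 against 217 to 305), Echs1 in mouse 7 (2190 against 1870 to 2000), Gpt in mouse 2 (638 against 531 to 574), Fbxo21 in mouse 6 (428 against 478 to 502), Ckm in mouse 3 (31100 against 32600 to 33300) and Cox4i1 in mouse 4 (14500 against 15300 to 15900). On CR they were Car14 in mouse 4 (1550 against 1840 to 2070), Cpeb1 in mouse 5 (790 against 519 to 580), Ulk1 in mouse 5 (1050 against 817 to 883), Pmp22 in mouse 1 (1330 against 769 to 922), Mybpc1 in mouse 1 (21400 against 19200 to 20100), Atp5e in mouse 2 (6300 against 7040 to 7360), Atp5g1 in mouse 3 (9290 against 9890 to 10200), Ckm in mouse 4 (32500 against 32800 to 33100) and 3 slow fibre genes in mouse 6, Myh7 (2930 against 308 to 751), Tnni1 (1200 against 221 to 407) and Tnnt1 (2530 against 348 to 684). No mouse was apart in more than 3 of these genes.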

How the results depend on the processing

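The count of 2246 called genes ranged from 1775 (without CR mouse 7) to 2290 (without control-diet mouse 3) over the mice left out, and was 1586 without both mice that stood apart, an alternative chosen after seeing the data. At an adjusted p under 0.01 it was 1111 (473 higher, 638 lower), and in FLOX 669. The interaction called 0 genes in every alternative run. At that threshold the rises were 8 for the mitochondrial ribosome, 5 for fatty acid oxidation and 4 for import, and the falls 3 for class I, 6 for endothelial markers and 2 for the respiratory chain. With only the MKO arrays fitted, 10 mitochondrial ribosome and 4 import genes rose and 4 respiratory chain genes fell. Without both mice the rises were 9, 5 and 4 for the mitochondrial ribosome, fatty acid oxidation and import. Over the mice left out, mitochondrial ribosome rises ranged from 11 to 21. Averaging the probe sets of a gene ended the calls of Abhd5, Acsl6, Acvr1b, Atf6, Etv5, Fbxo21, H2-DMa, Mybpc1, Myl4, Per2 and Psma1, and with it Ighm and Myh4 passed. Among genes with several probe sets, only 1 was called for Bmp1, Dcn, Igfbp7, Loxl1, Mcm3, Mrpl35, Sqstm1 and Tbc1d4, among others. An uncalled probe set moved the other way for Igfbp7, Mrpl35, Phb2 and Hsp90aa1, as for those named above. Quantile normalization ended those of Atp5l, Ltbp3, Ndufs5, Pdia3, Ppard, Prkag3 and Ucp3. Atp5l also lost its call without control-diet mouse 5. Without both mice the falls were 3 for the interferon list in place of 5, and 1 in place of 3 for the TGF-beta list and the chaperones of the endoplasmic reticulum. The rises were then 1 in place of 3 for the heat shock list and the respiratory chain. The cause was not tested. No named gene reversed in any alternative. Median centring and quantile normalization moved the median of all genes from 0.00095 to -0.0053 and 0.0036.

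Deviations of same-numbered mice correlated at -0.345 to 0.34 over 7 pairs. Of the CR mice, 2 correlated best with the control-diet mouse of their own number. So few pairs cannot show whether the numbers in the titles pair the mice. With the replicate block 2194 genes were called. No detection calls were used, so how far dim genes stand over background is unknown.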
